A study of Mus musculus with 15 samples.

Results

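The integrated stress response is the program by which a cell short of amino acids, heme or protein folding capacity lowers general translation and turns on genes of amino acid supply. The values of 45 genes of this response were examined here, taken by symbol from the 20723 gene symbols listed in 4 deposited tables. The genes fall into 10 transcription factors, feedback genes and secreted or surface targets, 8 enzymes of asparagine, serine, one-carbon and cysteine metabolism, 7 amino acid transporters, 12 genes of tRNA charging and export (11 aminoacyl-tRNA synthetases and Xpot) and 8 genes of the unfolded protein response. They were chosen as targets of the transcription factor ATF4 or by what their products do, and with earlier results of these data known.

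Total bone marrow of leukemic C57BL/6 mice was profiled by RNA sequencing in 15 libraries, 3 in each of 5 groups. Every group carried the MLL-AF9 fusion oncogene, delivered with GFP by a retrovirus into lineage-depleted cells of mice that express a form or level of human GFI1, a transcriptional repressor of blood cells. Sorted GFP+ cells went into mice irradiated with 7 and 3 Gy, later passages into mice given 3 Gy, and the quaternary recipients were sampled. The untreated groups were 36S (genotype label GFI1 KI /KI, human GFI1 at the mouse Gfi1 locus, libraries 1 to 3), 36N (GFI1 36N /36N, the 36N variant of human GFI1, libraries 4 to 6) and KD (GFI1 KD /KD, human GFI1 at 10 to 20% of its level, libraries 7 to 9). The treated groups were 36S cells (libraries 1 to 3) and 36N cells (libraries 4 to 6) that received temozolomide (TMZ), a DNA-methylating chemotherapy drug, at 50 µg/ml 20 h before RNA isolation. Total marrow also holds cells of the irradiated host, and no source used here gives the ages of the mice. The labels do not say whether libraries of a group came from separate mice, so the tests measure the spread between libraries, which may be technical. The number after MLL-AF9 in the titles runs from 1 to 3 in 36S and is 1 in every 36N and KD library. The TMZ libraries also carry a further number that differs for each library. The labels explain neither number. They also do not say how the untreated cells were kept, so TMZ and any time in culture cannot be told apart.

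As background, the kinases Gcn2, Perk, Hri and Pkr phosphorylate the translation factor eIF2, which slows initiation on most mRNAs but favours translation of Atf4. ATF4 then activates genes for amino acid import, for synthesis of asparagine and serine, and for tRNA charging, together with Ddit3 (CHOP) and the feedback genes Trib3 and Ppp1r15a. The unfolded protein response overlaps with it through Perk and raises chaperones of the endoplasmic reticulum through Atf6 and Xbp1. Since Atf4 is controlled largely at translation, its mRNA is an incomplete readout of its activity.

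Values are normalized counts, and a fold change below is the difference of group means of log2(normalized count + 1), with its standard error. A gene was tested in a table if its value was at least 10 in at least 3 libraries, and a change was called at an adjusted p under 0.05 (limma, Benjamini-Hochberg over all genes tested). Column totals ran from 11265945 to 24264818, and since the values are normalized these are not read depths, which are unknown. The 36S values were identical in both untreated tables (largest difference 0), so KD and 36N could be compared too. A row named Gfi1 appeared in 1 of the 4 tables, with 505, 565 and 367 in untreated 36N libraries and 723, 504 and 555 in the TMZ libraries. Whether that row holds reads of the human gene was not tested, and it checks no genotype label.

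Libraries differed in markers of cell type. Summed over 9 neutrophil genes, 36S libraries held 67491 to 199754, against 47493 to 54641 in 36N and 32507 to 43670 in KD. The sum of 8 monocyte and macrophage genes was 40031 to 45415 in 36S, 49087 to 54875 in 36N and 86938 to 139971 in KD. With TMZ, the 36N libraries stood apart from untreated 36N: the 10 mast cell and basophil genes summed to 445 to 1240 without TMZ and to 103969 to 291792 with it, and the 5 megakaryocyte genes to 33 to 65 and to 28899 to 56717. Plasma and B cell genes summed to 8352 to 14779 without TMZ and to 142 to 441 with it, with Iglc2 at 0 in every TMZ library, and 6 of 7 tested were called lower but Sdc1 higher (1.79). Of 7 tested T and NK cell genes, 4 were lower, with Cd3e at 0 in every TMZ library, and 2 were higher, Gzmb (8.81) and Nkg7 (3.71). Of 6 leukemic and myeloid identity genes, 4 were called lower and 1 higher, with changes from -2.07 to 5.25. Their sum was 23925 to 27015 without TMZ and 28566 to 35516 with it. Among them Hoxa9, a target of the fusion protein, averaged 2847 without and 652 with TMZ in 36N. In bulk RNA, fewer cells of a type and less RNA per cell cannot be told apart, and this holds for every result below.

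The members' promoters were read from RefSeq (GRCm38.p6). A promoter, defined as 250 bases before to 50 bases after the start site, was found for 36 of the 45 genes. The core of the element bound by C/EBP-ATF pairs, TGATGNAA on either strand, was present in 13 of these 36 genes (36.1%) and in 4.51% of all genes with a promoter. The stress element of chaperone genes, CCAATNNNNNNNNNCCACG on either strand, was present in 3 of the 36 (8.33%; Calr, Creld2 and Hspa5) and in 0.137% of all genes. No member held both motifs. Members were listed in part as ATF4 targets and as unfolded protein response genes. Higher shares than among all genes can therefore come from that choice and are no result about these data. A match is a description of the letters and shows no binding.

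The 250 bases upstream of the start are shown for Asns, whose RNA was lower in both untreated comparisons with 36S and higher with TMZ, and for Hspa5, the chaperone BiP. Capitals mark the motif match, TGATGAAA in Asns, which starts 23 bases before the start site, and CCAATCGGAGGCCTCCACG in Hspa5, 65 bases before it. The Asns bases lie at chr6:7693210-7693459 on the minus strand and the Hspa5 bases at chr2:34771840-34772089 on the plus strand.
Asns: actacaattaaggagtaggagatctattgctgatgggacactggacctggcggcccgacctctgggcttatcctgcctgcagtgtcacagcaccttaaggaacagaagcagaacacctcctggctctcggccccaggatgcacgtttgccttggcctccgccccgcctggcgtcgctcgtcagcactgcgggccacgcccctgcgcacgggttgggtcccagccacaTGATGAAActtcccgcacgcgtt
Hspa5: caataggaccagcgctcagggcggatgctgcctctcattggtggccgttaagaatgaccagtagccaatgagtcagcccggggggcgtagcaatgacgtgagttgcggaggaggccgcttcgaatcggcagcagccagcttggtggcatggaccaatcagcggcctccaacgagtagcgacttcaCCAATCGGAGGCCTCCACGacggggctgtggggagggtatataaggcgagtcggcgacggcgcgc

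Windows of 30 bases around upstream matches are shown for 7 further genes, each on the strand of its gene, with the match in capitals. A match to TGATGCAA on the opposite strand reads TTGCATCA, and those of Calr and Creld2 are also on the opposite strand. Slc7a11 held a match on each strand within 1 window, the first starting 66 bases before the start site.
Chac1: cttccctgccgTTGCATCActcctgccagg
Vldlr: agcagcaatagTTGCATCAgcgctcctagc
Nupr1: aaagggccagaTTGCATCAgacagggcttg
Herpud1: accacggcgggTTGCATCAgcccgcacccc
Slc7a11: gcTGATGCAAacctggagaatTTGCATCAt
Calr: acaacgCGTGGTCGACCCTCATTGGcccat
Creld2: gcttctCGTGGCGAGCCTCAATTGGtccac
Their positions are chr2:119351038-119351067 (plus strand, Chac1), chr19:27216809-27216838 (plus, Vldlr), chr7:126625562-126625591 (minus, Nupr1), chr8:94386306-94386335 (plus, Herpud1), chr3:50443652-50443681 (minus, Slc7a11), chr8:84847070-84847099 (minus, Calr) and chr15:88819514-88819543 (plus, Creld2). Other genes with TGATGNAA in the window searched include Trib3, Slc1a4, Gars, Iars, Tars and Yars.

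The first comparison asked what the 36N variant does to untreated leukemic marrow. Asns, the enzyme that makes asparagine, and the endoplasmic reticulum genes Sdf2l1 and Herpud1 were lower in 36N than in 36S, and no member was higher. Among all 13137 genes tested, 4.56% were called, 2.01% as lower. Of the 45 members, 42 were tested (Trib3 and Vldlr were too low and Cth was not in this table), 3 were called lower and 39 were not called. Fold changes were negative for 37 of the 42, with a median of -0.28, while 51.7% of all genes were negative, with a median of -0.01. Values of the groups did not overlap for 22 members, 21 lower and 1 higher, against 13.8% and 13.1% of all genes. The 37 and the 21 include Chac1, Stc2 and Slc1a4, which passed the filter only through their 36S values, so the filter favoured their direction.

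Asns was 319, 275 and 173 in the 36S libraries and 79.7, 87.5 and 44.4 in the 36N libraries. Every 36N library was below every 36S library, and the fold change was -1.86 ± 0.31 (adjusted p = 0.011). Sdf2l1, which works with the chaperone BiP, was 1483, 1172 and 993 in 36S and 711, 688 and 552 in 36N, a change of -0.89 ± 0.17 (adjusted p = 0.020). Herpud1, a membrane protein of the degradation pathway for misfolded proteins, was 1554, 1239 and 1263 in 36S and 959, 830 and 865 in 36N, a change of -0.61 ± 0.12 (adjusted p = 0.028). For these 3 genes the groups did not overlap. Without 36S library 2, none of the 3 was called and 218 genes were called in all. In limma without the variance trend none of the 3 was called either, and Slc1a4 was the 1 member called. Slc1a4 was tested here only because its 36S values passed the filter. Without 36N library 5 or 36N library 6, Asns alone was called, and without 36S library 1 Herpud1 was not.

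Among the factors and feedback genes, 8 were tested and none was called by limma, while 4 had an unadjusted p under 0.05. Atf4 was 2251, 1805 and 1792 in 36S and 1485, 1326 and 1248 in 36N, with groups that did not overlap and a change of -0.52 ± 0.13 (adjusted p = 0.052). Ddit3, the pro-apoptotic factor CHOP, was 91.0, 91.6 and 91.2 in 36S and 62.4, 53.5 and 64.3 in 36N (-0.60 ± 0.21, adjusted p = 0.15). Chac1, an enzyme that degrades glutathione, was 19.9, 31.8 and 13.3 in 36S and 7.50, 2.66 and 9.77 in 36N (-1.62 ± 0.56, adjusted p = 0.15). These 3 genes also had no overlap between groups, and Chac1 was tested only because its 36S values passed the filter. Stc2, a secreted glycoprotein induced by ATF4, was 52.1, 42.5 and 46.2 against 16.2, 24.7 and 5.05 (-1.78 ± 0.51, adjusted p = 0.090). Stc2 too was tested only because its 36S values passed the filter. Trib3, a pseudokinase that restrains ATF4, was 11.1, 4.65 and 0 in 36S and 3.76, 1.76 and 2.95 in 36N, too low to test.

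All 12 genes of tRNA charging and export and all 8 of the unfolded protein response had negative fold changes, with medians of -0.24 and -0.46, though only Herpud1 and Sdf2l1 passed the test. Hspa5 was 5197, 4389 and 3491 in 36S and 3093, 3180 and 3154 in 36N (-0.45 ± 0.14, adjusted p = 0.12). Xbp1, the transcription factor of the unfolded protein response, was 2291, 2277 and 1866 against 1788, 1671 and 1777 (-0.29 ± 0.11, adjusted p = 0.19). The groups did not overlap for either. Among the transporters and the serine enzymes, 36N and 36S overlapped for Slc3a2, Slc7a5, Slc7a11, Phgdh and Psat1, with changes from -0.37 ± 0.18 (Slc7a5) to 0.43 ± 0.43 (Phgdh). Of the other transporters, Slc1a4 (-1.20 ± 0.42), Slc1a5 (-0.28 ± 0.12) and Slc38a2 (-0.21 ± 0.10) had no overlap, each lower in 36N, and were not called.

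**Figure D1:**
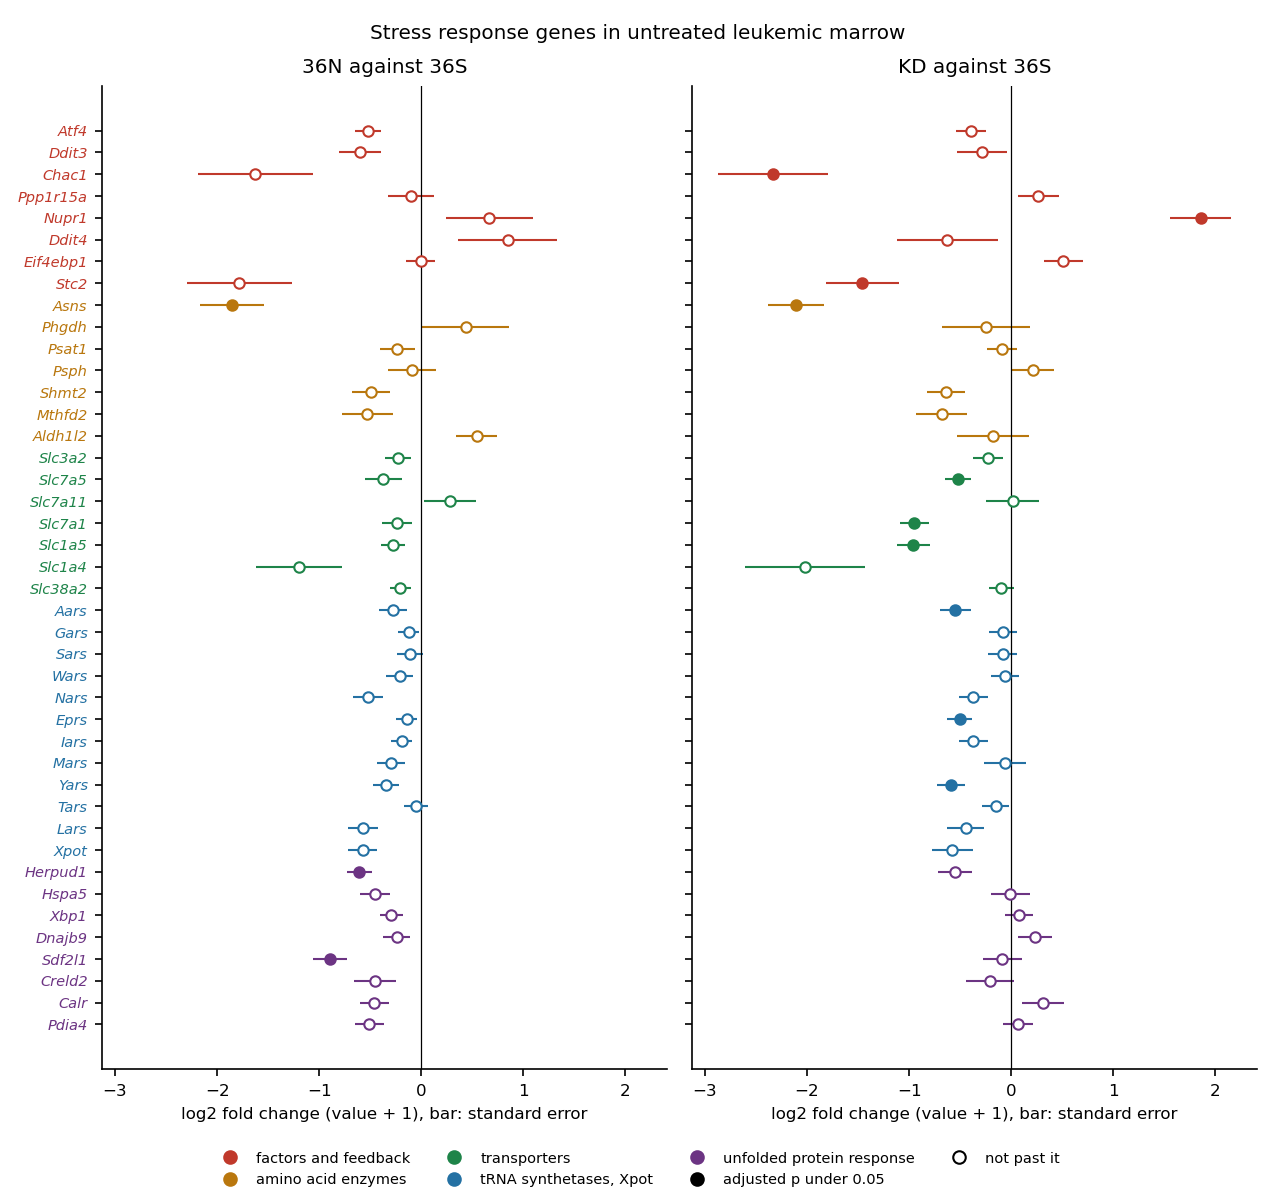
Log2 fold change (value + 1) of each tested member in untreated marrow, 36N against 36S on the left and KD against 36S on the right, with standard errors, coloured by role; filled points had an adjusted p under 0.05. The tRNA and unfolded protein response genes all lie left of 0 in 36N, while 4 of the 8 unfolded protein response genes lie right of it in KD.

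The second comparison asked what a low level of GFI1 does. In KD marrow, Asns, Stc2, 3 amino acid transporters and 3 tRNA synthetases were lower than in 36S and Nupr1 was higher, while no unfolded protein response gene was called. The 36S libraries are the same as in the first comparison, so the 2 comparisons share their controls. Of 13109 genes tested, 11.5% were called, 6.61% as higher and 4.86% as lower. Of 42 members tested, 1 was called higher, 9 were called lower and 32 were not called; 1 of the 9, Chac1, was tested only through its 36S values. Fold changes were negative for 33 of the 42, against 50.9% of all genes. The median change of the members was -0.24, that of all genes -0.01. Groups did not overlap for 18 members, 15 lower and 3 higher, against 15.8% and 15.7% of all genes. The 33 and the 15 include Chac1 and Slc1a4, which passed the filter only through their 36S values. Scaling the libraries to equal totals shifted the median of all genes to -0.13, made 39.4% of all calls higher in place of 57.6%, and left 1 member higher and 14 lower.

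Asns was 66.8, 44.2 and 61.6 in KD, below all 36S libraries (-2.11 ± 0.28, adjusted p = 0.0017). Chac1 was 3.25, 2.76 and 3.77 in KD, also below all 36S libraries, through which alone it passed the filter (-2.34 ± 0.54, adjusted p = 0.023). Stc2 was 12.05, 23.9 and 15.1 (-1.46 ± 0.36, adjusted p = 0.029). None of these 3 genes overlapped between groups. Atf4 itself was 1570, 1283 and 1582 in KD, below the 36S libraries but not past the threshold (-0.40 ± 0.15, adjusted p = 0.12), and Ddit3 was 72.7, 59.3 and 97.0 (-0.28 ± 0.24, adjusted p = 0.51).

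The 1 member called higher was Nupr1, a small stress-induced chromatin protein. It was 37.9, 71.6 and 71.7 in 36S and 176, 197 and 279 in KD, a change of 1.86 ± 0.30 (adjusted p = 0.0045) with no overlap. In 36N it was 68.6, 63.8 and 181, so that only library 6 reached the KD range. Nupr1 stayed called without any 1 library, as did Asns, Slc7a1 and Slc1a5.

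Of 7 transporters tested, 3 were lower in KD. Slc7a1, the carrier of arginine and lysine, was 1747, 1733 and 1548 in 36S and 856, 997 and 764 in KD (-0.95 ± 0.14, adjusted p = 0.0029). Slc1a5, which imports glutamine, was 981, 926 and 805 in 36S and 382, 487 and 535 in KD (-0.96 ± 0.16, adjusted p = 0.0057). Slc7a5, the large neutral amino acid carrier LAT1, was 1430, 1588 and 1316 in 36S and 1040, 1030 and 948 in KD (-0.52 ± 0.13, adjusted p = 0.029). In all 3 the KD libraries lay below the 36S libraries. Slc1a4, which carries alanine, serine and cysteine, was 19.4, 18.8 and 18.1 in 36S, 10.2, 6.26 and 6.86 in 36N and 2.20, 9.17 and 2.55 in KD, with a change of -2.02 ± 0.59 in KD that missed the threshold (adjusted p = 0.056). It was tested against KD only because its 36S values passed the filter. Slc3a2, the heavy chain that partners Slc7a5 and Slc7a11, was 1154, 1161 and 907 in 36S, 951, 862 and 918 in 36N and 940, 825 and 972 in KD. Slc7a11, the cystine importer, was 88.1, 113 and 148 in 36S, 109, 142 and 172 in 36N and 105, 148 and 98.1 in KD. The groups overlapped for both of these carriers.

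Of the 12 tRNA genes, 3 passed in KD, all lower: Yars, Eprs and Aars, which charge tRNAs with tyrosine, glutamate and proline, and alanine. Yars was 599, 560 and 488 in 36S and 378, 363 and 349 in KD (-0.59 ± 0.14, adjusted p = 0.027). Eprs was 1834, 1791 and 1739 against 1305, 1355 and 1129 (-0.51 ± 0.13, adjusted p = 0.030). Aars was 1593, 1532 and 1371 against 1220, 887 and 992 (-0.55 ± 0.15, adjusted p = 0.044). All 12 had negative changes, with a median of -0.37. Without KD library 9, 36S library 1 or 36S library 2, the members called lower were Asns, Slc7a1 and Slc1a5 alone. Without the variance trend Yars, Eprs, Aars and Slc7a5 were not called, and 6 members were lower. Aars also fell short with no filter.

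The enzymes of serine synthesis did not pass the test. Phgdh, the first enzyme of the pathway, was 229, 95.5 and 74.6 in 36S, 242, 161 and 105 in 36N and 157, 68.3 and 90.4 in KD. Library 1 was high within 36S, and the groups overlapped. Psat1, the next enzyme, was 1149, 1050 and 922 in 36S, 1114, 894 and 687 in 36N and 1078, 837 and 1014 in KD, again overlapping.

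For the 8 unfolded protein response genes the median change in KD was 0.03, 4 were positive and limma called none, with 1 at an unadjusted p under 0.05. With equal totals Xbp1 turned from 0.08 to -0.04. Hspa5 was 5123, 3438 and 4435 in KD, within the 36S range in 2 of 3 libraries, and Xbp1 was 2373, 2029 and 2364. Herpud1 was 1113, 758 and 918, below the 36S libraries, without passing the threshold (-0.55 ± 0.17, adjusted p = 0.066). Sdf2l1 was 1179, 896 and 1368, which overlapped 36S.

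Tested directly, KD and 36N differed in 3.24% of 13118 genes, 2.03% higher in KD and 1.21% lower. The libraries are those of the first and second comparisons. Of 40 members tested, 1 was called higher in KD (Sdf2l1, 0.81 ± 0.18, adjusted p = 0.040) and 2 lower: Slc1a5 (-0.68 ± 0.16, adjusted p = 0.049) and Ddit4, an inhibitor of mTORC1 (-1.47 ± 0.30, adjusted p = 0.026). Slc1a5 was 795, 728 and 707 in 36N, above all KD libraries and below all 36S libraries. Ddit4 was 53.6, 117 and 257 in 36S, 196, 162 and 300 in 36N and 52.8, 92.2 and 89.6 in KD, so that it varied most within 36S. All 8 unfolded protein response genes had positive changes in KD against 36N, with a median of 0.46, against 49.1% positive among all genes. For 6 of the 8 the KD libraries were all above the 36N libraries. Over all members, groups did not overlap for 7 higher and 5 lower, against 12% and 10.7% of all genes. With equal totals the median of all genes shifted to -0.13, Herpud1 turned to -0.06 and Sdf2l1 was no longer called. Without KD library 8, 7 members were higher and 4 lower, among 2018 genes called. Without KD library 7, KD library 9 or 36N library 4, no member was called, without 36N library 5 Ddit4 alone was, and without 36N library 6 none of the 3 was. Without the variance trend no member was called, and Slc1a5 also fell short with a pseudocount of 0.5, no filter or quantile normalization.

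**Figure D2:**
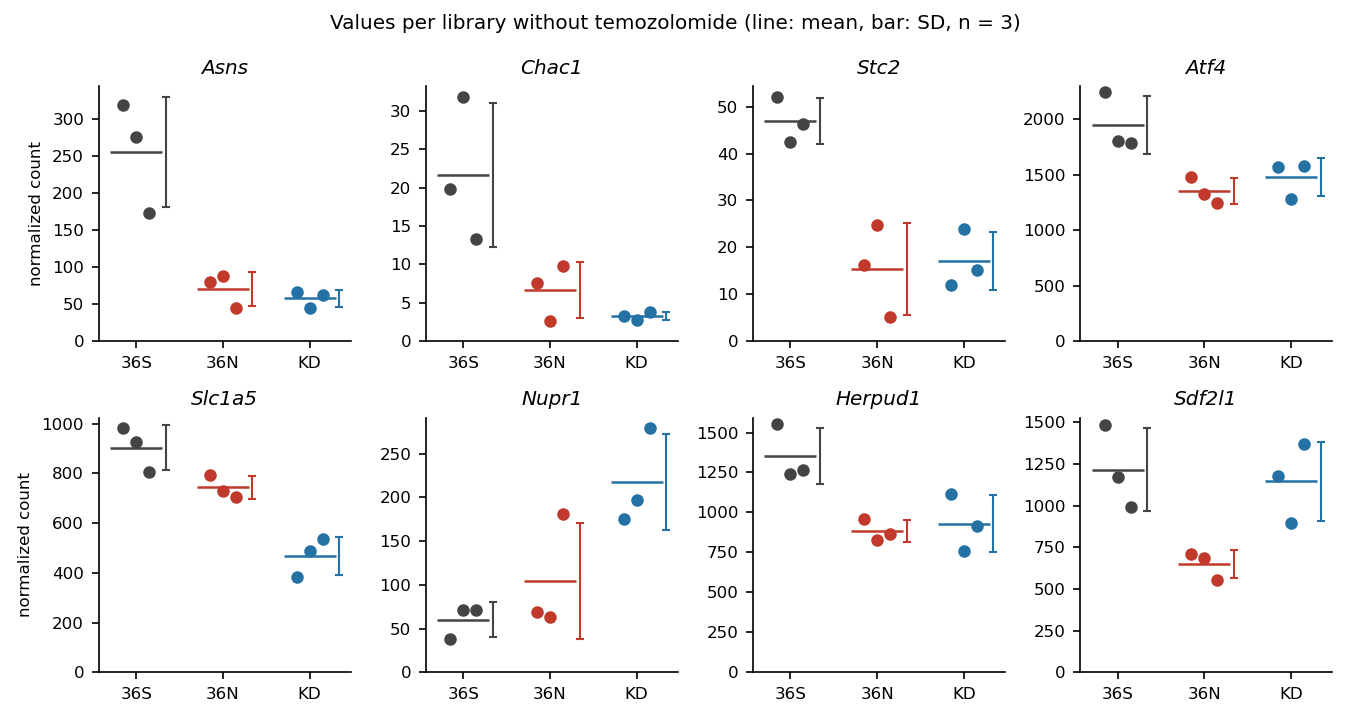
Normalized counts of 8 members in each untreated library (points), with the mean (line) and SD (bar), n = 3 per group, on axes that start at 0. Asns, Chac1 and Stc2 sit above 36N and KD in every 36S library, Nupr1 is higher in every KD library than in 36S, and Sdf2l1 is lowest in 36N.

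Marker genes moved along with these differences. In 36N against 36S, 2 of 9 neutrophil genes, Elane and Mpo, were called lower (-1.25 and -1.48), Lyz2 of the monocyte list was higher (0.91) and Kit was lower (-1.81). In KD against 36S, 5 of 9 neutrophil genes were lower and 6 of 8 monocyte and macrophage genes higher, and 3 of 7 tested plasma and B cell genes were lower, Jchain from a mean of 389 to 61.97. Also in KD against 36S, 4 of 7 T and NK cell genes were higher (Cd3e 3.03, Gzmb 2.95), as were 2 of 4 eosinophil genes (Prg2 4.47, Siglecf 1.66), and of the mast cell and basophil genes Cpa3 (2.69) and Gata2 (1.21) were higher and Ms4a2 lower (-3.20). In KD against 36N, 4 of 9 neutrophil genes and 3 of 7 plasma and B cell genes were lower, while 3 of 8 monocyte genes, 3 of 4 mast cell and basophil genes (Cpa3 4.37, Hdc 1.95, Gata2 1.89), 2 of 4 eosinophil genes (Siglecf 2.59) and 1 of 8 T and NK cell genes were higher. Plasma and B cell genes summed to 7317 to 11699 in 36S, 6109 to 10808 in 36N and 5870 to 6331 in KD, none at 0. Plasma cells are rich in unfolded protein response RNA. The part of cell make-up in the members' differences was not tested.

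Of 92 other genes of these pathways listed beside the members, 71 were tested in the untreated comparisons. In 36N, 3 were lower and none higher: Vegfa, a growth factor gene that ATF4 can induce (406.7, 492.6 and 338.1 in 36S, 87.0, 132.4 and 99.7 in 36N; -1.95 ± 0.21), Atf5, a factor related to Atf4 (-0.96 ± 0.15), and the chaperone Hyou1 (-0.47 ± 0.11). In KD, 4 were lower, namely Vegfa (-3.31 ± 0.35), Atf5 (-1.49 ± 0.16), Shmt1 (-0.80 ± 0.17) and Sel1l (-0.46 ± 0.12), and 2 were higher, Dnajc10 (1.09 ± 0.12) and Atf6b (0.43 ± 0.12). Vegfa and Atf5 were below every 36S library in both groups. Between KD and 36N limma called 0, with 21 at an unadjusted p under 0.05. None of the 4 eIF2 kinase genes passed against 36S: Eif2ak1 (Hri) changed by 0.36 ± 0.13 in 36N and 0.44 ± 0.15 in KD, Eif2ak2 (Pkr) by 0.16 ± 0.12 and -0.56 ± 0.19, Eif2ak3 (Perk) by 0.13 ± 0.18 and 0.20 ± 0.15, and Eif2ak4 (Gcn2) by -0.18 ± 0.14 and -0.43 ± 0.16.

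The third question was how 36N cells respond to TMZ. Most members were higher with TMZ, across all 5 roles, in a comparison where 69.7% of 14390 genes were called, 36.3% as higher and 33.5% as lower. Of 44 members tested, 33 were called higher, 2 lower and 9 not called. With equal totals 4681 genes were higher and 5322 lower, in place of 5217 and 4820, and 31 members were higher and 3 lower. The median change was 1.26, against 0.06 for all genes, and 35 members had no overlap between groups (74.5% of all genes). By role, 8 of 10 factors and feedback genes, 5 of 7 enzymes, 5 of 7 transporters, 8 of 12 tRNA genes and 7 of 8 unfolded protein response genes were higher. Of these, Trib3, Vldlr, Chac1, Stc2 and Slc1a4 passed the filter only with their values in the TMZ libraries. These libraries are those with high mast cell, basophil and megakaryocyte gene levels, so the drug and the cell make-up cannot be told apart.

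A further limit bears on these values. The same 36N libraries appear in other tables, and the ratio between a gene's values in 2 tables was nearly constant across libraries (median SD 0.0043 and 0.015 on the log2 scale) but differed between genes. Among 10084 genes with a mean of at least 50, this gene-specific factor had quartiles of -0.31 and 0.41, and 11.02% exceeded 1 in size. No source used here gives the origin of the factor. The fold change was therefore also computed from the other 2 tables, as a value with no test, chosen after the tables were seen. For this, each library's values were first shifted by its median ratio between tables over those 10084 genes. It is therefore not the plain difference between the values listed in those 2 tables. By that route 31 of the 33 members called higher stayed positive, and the median of the 44 members was 1.29. Of the 33, 27 rose at least 2-fold within 1 table and 22 by that route. The factor exceeded 1 in size for 8 of the 44 members. Both routes use the same libraries, so a kept sign is no separate evidence.

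Atf4 was 2025, 1809 and 1711 in untreated 36N and 3096, 3452 and 2704 with TMZ (0.73 ± 0.13, adjusted p = 0.0015; 0.52 from the other tables). Ddit3 was 88.8, 76.1 and 91.9 without TMZ and 313, 394 and 515 with it (2.21 ± 0.24, adjusted p = 0.00012; 1.40 from the other tables). Trib3 was 5.52, 2.58 and 4.34 without TMZ and 148, 297 and 94.1 with it (5.01 ± 0.48, adjusted p = 7.0e-05; 4.98). For all 3 every TMZ library was above every untreated one. Trib3, Vldlr, Chac1, Stc2 and Slc1a4 passed the filter only with their TMZ values. Chac1 was 11.2, 3.98 and 14.7, and 63.1, 107 and 40.4 with TMZ (2.74 ± 0.55, adjusted p = 0.0028; 2.77). Ppp1r15a, the phosphatase subunit that reverses eIF2 phosphorylation, was 57.7, 50.9 and 76.2, and 887, 856 and 1051 with TMZ (3.91 ± 0.21, adjusted p = 4.9e-06), but the change was 2.17 from the other tables. Vldlr, a lipoprotein receptor gene induced by ATF4, was 4.52, 0 and 1.51, and 288, 267 and 116 with TMZ (6.44 ± 0.67, adjusted p = 9.8e-05; 6.44).

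The remaining genes of this role split. Stc2 was 19.7, 30.01 and 6.17 without TMZ and 372, 374 and 178 with it, and rose by 4.14 ± 0.58. Ddit4 was 329, 272 and 507 without TMZ and 1103, 1061 and 1583 with it, and rose by 1.78 ± 0.26. Nupr1 was 56.4, 52.4 and 149.9 without TMZ and 306, 124 and 138.5 with it (1.18 ± 0.50), which overlapped. Eif4ebp1, which encodes a translation repressor, was 521, 453 and 535 without TMZ and 533, 564 and 452 with it (0.03 ± 0.15), also overlapping. From the other tables the changes of Nupr1 and Eif4ebp1 were -0.47 and -0.65.

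Asns was 91.3, 100.1 and 51.1 without TMZ and 735, 1060 and 445 with it (3.16 ± 0.38, adjusted p = 0.00020; 2.43 from the other tables). Phgdh was 269, 179 and 117, and 2478, 2977 and 1153 with TMZ (3.51 ± 0.41, adjusted p = 0.00018; 2.74). Neither gene overlapped between groups. Psat1 was 1812, 1453 and 1123, and 2222, 3081 and 1451 with TMZ, which overlapped (0.58 ± 0.29, adjusted p = 0.10), whereas Psph, which completes serine synthesis, rose from 138, 95.3 and 77.3 to 325, 499.9 and 348 (1.92 ± 0.28). The mitochondrial one-carbon enzymes split. Mthfd2 was higher, from 357, 240.1 and 425 to 807, 1015 and 579 (1.23 ± 0.27). Aldh1l2 was lower, from 261, 330 and 373 to 53.5, 42.8 and 39.9 (-2.79 ± 0.25, adjusted p = 4.4e-05). Shmt2, which makes glycine from serine in mitochondria, was called higher, from 2038, 1651 and 1217 to 2695, 4271 and 2112 (0.86 ± 0.28), but its change was -0.23 from the other tables. The Shmt2 call was kept in 2 of 6 fits that left out a library and was lost with equal totals or without the trend. Psph also moved, to 0.74. Cth, the enzyme that makes cysteine from cystathionine, was listed at 2.54, 0 and 0 without TMZ and 4.82, 21.7 and 8.67 with it, too low to test.

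Of the transporters, Slc3a2 was 501, 454 and 486 without TMZ and 22592, 34755 and 32461 with it (5.93 ± 0.17, adjusted p = 6.1e-07). From the other tables its change was 2.89, the widest difference between routes among the members. Slc7a5 was 2179, 1542 and 1299, and 5165, 9287 and 5177 with TMZ (1.94 ± 0.28, adjusted p = 0.00049; 1.94). Slc7a11 was 286, 372 and 453, and 366, 545 and 421 with TMZ (0.27 ± 0.23, adjusted p = 0.32), but its change was 1.63 from the other tables. The routes thus differ on Slc7a11. Slc1a5 was 782, 716 and 699, and 6553, 10138 and 6390 with TMZ, and rose by 3.36 ± 0.19 (2.25 from the other tables). Slc1a4 was 16.0, 9.81 and 10.8, and 141, 264 and 84.3 with TMZ, and rose by 3.51 ± 0.45. Slc38a2, a sodium-coupled importer of small neutral amino acids, was 3436, 3186 and 3665, and 6646, 9385 and 5742 with TMZ, and rose by 1.05 ± 0.18 (1.59 from the other tables). No TMZ library of these 3 carriers overlapped the untreated ones. Slc7a1 was 2854, 2414 and 1916, and 1567, 2540 and 905 with TMZ, which overlapped (-0.62 ± 0.35, adjusted p = 0.15).

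Of the tRNA genes, 8 were called higher, none of them overlapping between groups. Mars, for methionine, went from 452, 437 and 414 to 1514, 1531 and 1102 (1.65 ± 0.16; 1.62 from the other tables). Aars went from 1371, 1419 and 1046 to 3739, 4065 and 2246 (1.36 ± 0.24), but by 0.35 from the other tables. In both the lowest TMZ library was library 6. Xpot, which exports tRNA from the nucleus, went from 804, 828 and 751 to 1930.5, 2445 and 1677 (1.33 ± 0.16), but by 0.63 from the other tables. Lars, for leucine, went from 675, 827 and 665 to 1729, 2164 and 1422 (1.28 ± 0.18; 1.37 from the other tables). Nars, for asparagine, went from 1332, 1569 and 1072 to 2947, 3486 and 2455 (1.16 ± 0.18; 0.81). Tars, for threonine, went from 788, 892 and 763 to 1544, 2094 and 1527 (1.07 ± 0.16; 0.67). The smaller changes were in Wars and Iars, for tryptophan and isoleucine. Wars went from 779.7, 616 and 620.0 to 1003, 1251 and 1084 (0.73 ± 0.15; 0.56 from the other tables). Iars went from 1390, 1316 and 1263 to 2119, 2686 and 1511 (0.63 ± 0.20), with -0.22 from the other tables. The Iars call was kept in 1 of 6 fits that left out a library and was lost with equal totals. Gars, Sars, Eprs and Yars were not called and overlapped between groups, with changes from -0.32 ± 0.16 (Eprs) to 0.63 ± 0.30 (Yars).

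Of the unfolded protein response genes, Hspa5 was 5753, 5913 and 5895 without TMZ and 15959, 16893 and 12205 with it (1.35 ± 0.15, adjusted p = 0.00013; 1.97 from the other tables). Xbp1 was 2436, 2277 and 2434, and 3433, 3440 and 3759 with TMZ (0.57 ± 0.10, adjusted p = 0.0015; 0.34). Herpud1 was 1281, 1108 and 1160, and 1476, 1790 and 1627 with TMZ (0.46 ± 0.12, adjusted p = 0.011; 0.22). All 3 were above every untreated library. Calr, the lectin chaperone calreticulin, went from 13029, 11515 and 9798 to 44802, 68314 and 54134 (2.27 ± 0.20), and Pdia4, a disulfide isomerase, from 2136, 1755 and 1632 to 5592, 7085 and 6426 (1.79 ± 0.14). Creld2 went from 371.5, 285 and 331 to 1296, 1414 and 1458 (2.08 ± 0.14), and Sdf2l1 from 1059.9, 1026 and 826 to 1869, 2101 and 2264 (1.10 ± 0.14). None of these 4 genes overlapped either. Dnajb9, a BiP cochaperone gene and target of Xbp1, went the other way, from 724, 768 and 862 to 335, 350 and 602 (-0.92 ± 0.24, adjusted p = 0.0093; -0.68). The 3 genes with the chaperone stress element, Hspa5, Creld2 and Calr, were all among those higher, as were 24 of the 33 members whose promoter lacked it.

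**Figure D3:**
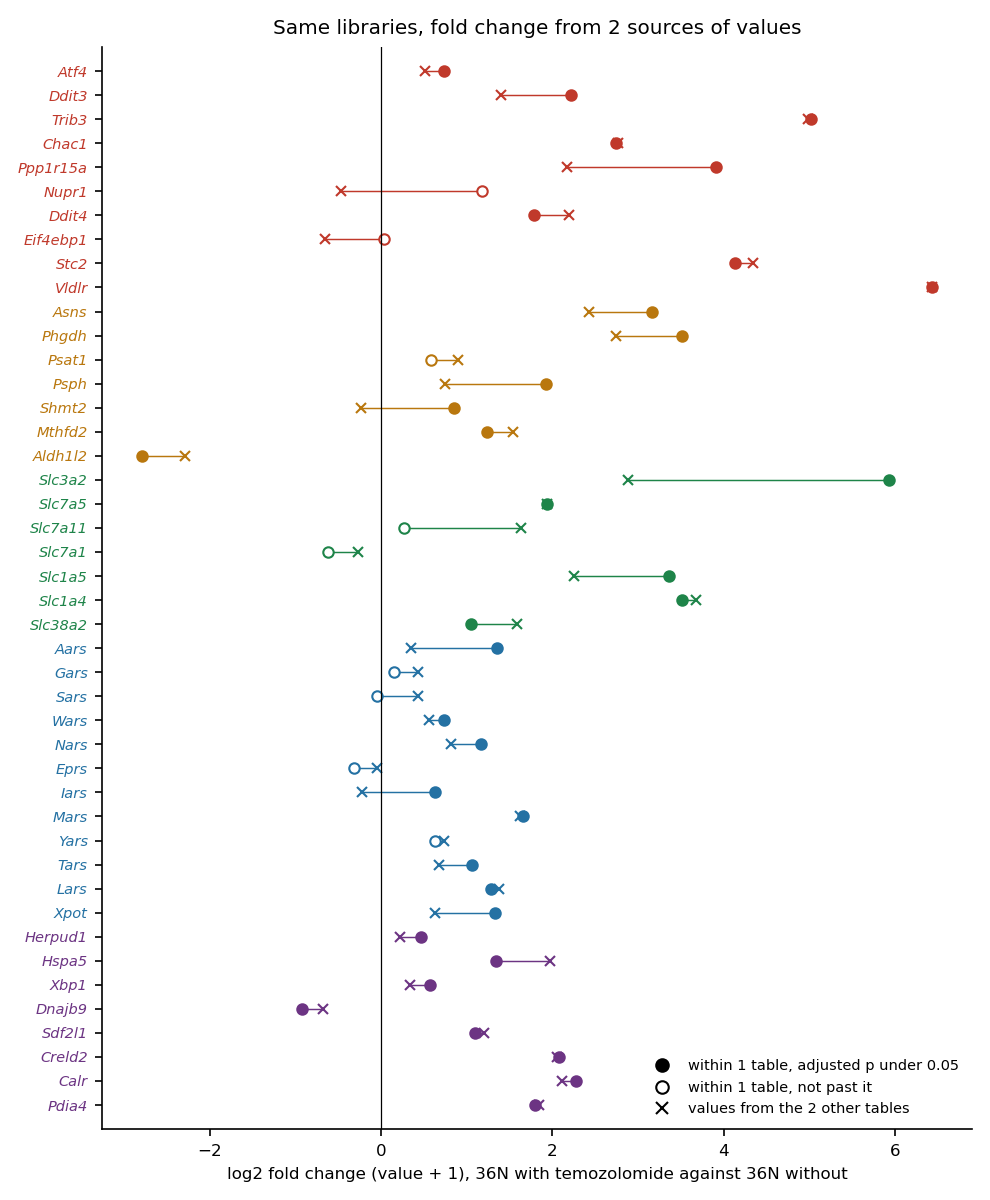
Log2 fold change (value + 1) of 44 members in 36N cells with TMZ against without, within 1 table (circles, filled where the adjusted p was under 0.05) and from the 2 other tables (crosses, no test), coloured by role. Slc3a2 moves from 5.93 to 2.89, Shmt2 and Iars cross 0, and Trib3, Vldlr, Chac1 and Slc7a5 lie in nearly the same place by both routes.

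Of 73 other pathway genes tested, 45 were higher and 12 lower, against 36.3% and 33.5% of all genes. The largest changes among those called were in Slc6a9, a glycine transporter (6.34 ± 0.68), Gdf15, a stress-induced cytokine (4.60 ± 0.35), Slc7a3 (4.37 ± 0.60), Gclm of glutathione synthesis (3.78 ± 0.16), Eif2b4, a subunit of the exchange factor that eIF2 phosphorylation inhibits (3.64 ± 0.15), and the chaperone Hsp90b1 (3.21 ± 0.19). Among the kinase genes, Eif2ak1 fell by 1.81 ± 0.12, Eif2ak2 fell by 0.83 ± 0.27 and Eif2ak4 rose by 0.85 ± 0.18, while Eif2ak3 changed by -0.07 ± 0.18 and was not called. All changes in this paragraph are within 1 table, and no value from the other tables is given for these genes. Genes that passed the filter only with their TMZ values are not marked among them.

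The fourth comparison asked whether 36N and 36S cells differ with TMZ. No member passed the test: of 45 tested, 0 were called, 0 had an unadjusted p under 0.05 and 0 had groups without overlap (4.76% of all genes). Among all 14246 genes, 0% were called by limma and 191 had an unadjusted p under 0.05. The median change of the members was 0.03, with standard errors from 0.16 to 0.65, which limits what could be detected. Of 73 other pathway genes, limma called 0, with 2 at an unadjusted p under 0.05. Asns was 705, 1160 and 616 in 36S and 833, 1190 and 495 in 36N (-0.01 ± 0.36). Atf4 was 3531, 4637 and 2824 against 4191, 4632 and 3588 (0.20 ± 0.22), and Trib3 was 216, 315 and 111 against 233, 464 and 145 (0.35 ± 0.51). In each of these genes the second library of a group was the highest and the third the lowest. Ddit3 was 232, 730 and 1192 in 36S and 271, 338 and 437 in 36N (-0.78 ± 0.55), so its order was another, with library 3 highest in 36S and library 6 in 36N. Chac1 was 58.7, 129 and 38.4 in 36S and 98.1, 164 and 61.5 in 36N (0.58 ± 0.53). All of these groups overlapped.

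The transporters and serine enzymes were likewise close in mean. Slc3a2 was 11782, 21445 and 11459 in 36S and 11131, 16969 and 15671 in 36N (0.01 ± 0.29). Slc7a5 was 8678, 15559 and 5879 against 7557, 13466 and 7422 (-0.02 ± 0.39), and Slc7a11 was 812, 1065 and 389 against 777, 1147 and 877 (0.40 ± 0.37). Phgdh was 2379, 3311 and 1584 against 2802, 3335 and 1277 (-0.02 ± 0.40). Psat1 was 3068, 5340 and 2452 against 3648, 5012 and 2335 (0.03 ± 0.36). All 5 overlapped between genotypes. Hspa5 was 30748, 35690 and 23099 against 28488, 29883 and 21349 (-0.16 ± 0.24), Xbp1 was 5037, 5333 and 3517 against 4599, 4568 and 4934 (0.04 ± 0.19), and Herpud1 was 1921, 2623 and 2192 against 2013, 2420 and 2175 (-0.02 ± 0.17). Summed mast cell and basophil genes were 139668 to 405076 in 36S and 154838 to 436268 in 36N, so both groups carried these genes.

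**Figure D4:**
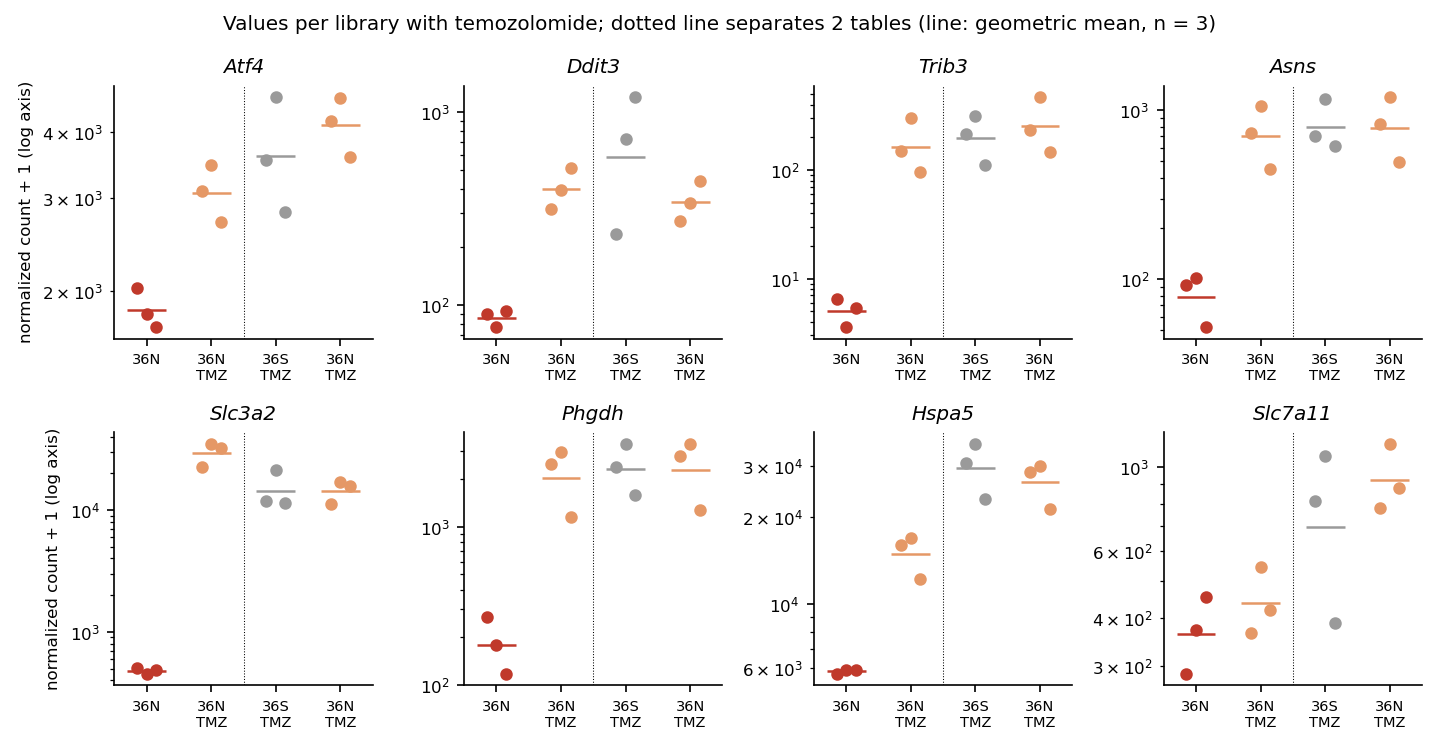
Normalized counts + 1 on log axes for 8 members, one point per library, n = 3 per group, with the geometric mean as a line; the dotted line separates the table of 36N with and without TMZ from the table of both genotypes with TMZ, whose values are not on a common scale. TMZ libraries lie above untreated ones on the left for all genes shown but Slc7a11, and the genotypes overlap on the right.

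Most members shared an order of libraries within the TMZ groups. Library 2 was the highest 36S library for 36 of 45 members and library 5 the highest 36N library for 34, while library 3 was lowest for 30 and library 6 for 29. The median deviation from the group mean was 0.39 in library 2 and 0.30 in library 5, and -0.35 and -0.27 in libraries 3 and 6. Across all genes the share at their highest in library 2 was 37.5% and in library 5 34.2%, and the share at their lowest was 41.2% in library 3 and 35.6% in library 6. Untreated groups also shared an order. There, 36S library 1 was highest for 25 of 42 members (38.0% of all genes) and library 3 lowest for 28 (34.3%). In untreated 36N, library 4 was highest for 20 (36.4%), and KD library 8 was lowest for 26 (40.3%). Members thus varied together by library, and counts of their signs do not rest on separate observations.

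**Figure D5:**
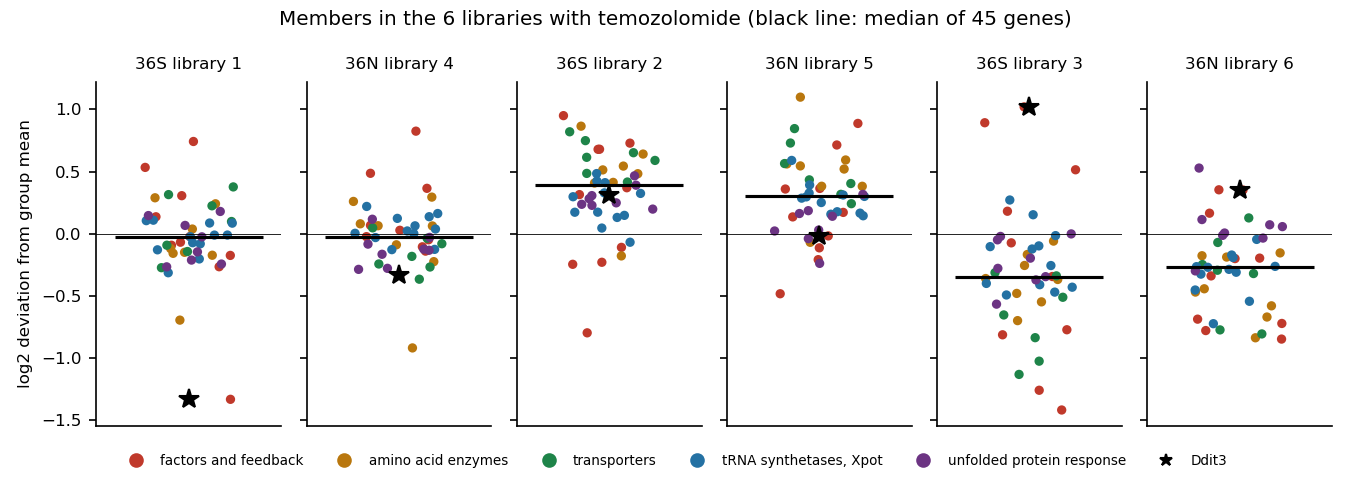
Log2 deviation of each of 45 members from its group mean in the 6 TMZ libraries (points coloured by role, black line the median, star Ddit3). Libraries 2 and 5 lie mostly above 0 and libraries 3 and 6 mostly below it, with Ddit3 high in library 3 and low in library 1.

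Whether the difference between genotypes itself changed with TMZ was tested in the 12 libraries of 36S and 36N, with a positive value where 36N moved up relative to 36S. No member passed: 0 of 42 were called, against 0.333% of 12324 genes, and 6 members had an unadjusted p under 0.05. The lowest adjusted p among the members was 0.26, for Asns (1.84 ± 0.52), whose change in 36N against 36S was -1.86 without and -0.01 with TMZ. Sdf2l1 (0.82 ± 0.25), Herpud1 (0.59 ± 0.21), Atf4 (0.72 ± 0.26) and Chac1 (2.20 ± 0.79) came next, each with an adjusted p of at least 0.32. Estimates were positive for 36 of 42 members, with a median of 0.29, against 53.5% and 0.03 for all genes. They rest on the same untreated libraries as the first comparison and are not independent of it. The 36 include Chac1, Stc2 and Slc1a4, which passed the filter without TMZ only through their 36S values.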

How the data were processed

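RNA of 15 libraries was profiled by poly(A)-selected RNA sequencing. The submitters' processing notes name Salmon, DESeq2 and the build mm10, without versions or roles. The authors deposited 4 tables of normalized counts, a signal scaled between the libraries of a table, so values were compared within a table. Dividing the deposited values by their steps gave whole reads for at most 28.0 to 62.6% of values per library (tolerance 0.1), so counts were not recovered and no count model was run.

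Values were tested as log2(value + 1) with limma 3.58.1 (trended variance, R 4.3.3) in the 2 groups compared, for genes that reached 10 in 3 or more libraries, with Benjamini-Hochberg adjustment over all genes tested and a threshold of 0.05. The scale understates changes of low genes. The interaction was fitted over 12 libraries with an intercept per table. An exact two-sided permutation test of 3 against 3 libraries cannot go below 0.1 and was not used. The script was tested on simulated data. Alternatives were pseudocounts of 0.5 and 5, no filter or a filter of 50, equal totals, quantile normalization, limma without trend or with robust variances, a block by library number, and each library left out.

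The members and all gene lists were chosen with earlier results of these data known. Members called with no overlap between groups, and 13 taken whatever their values, are given by library; of the 92 other pathway genes, at most 6 called per comparison (the largest changes) and the 4 kinases are named. Promoters came from RefSeq (GRCm38.p6), matched by symbol, and 1 matched window is not reported here.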

Additional observations from a re-analysis of the deposited data

How the results depend on the processing

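Over 108 results for single genes, 1678 alternative values were computed. Of these, 1522 kept direction and, where a test was run, side of the threshold. A further 75 fell short of it, 12 newly passed it and 50 changed sign. The other 19 moved without changing sign, all of them values from the other tables. Values from the other tables have no test, and 16 of them are among the 1522. Depth is unknown, so what it limits could not be given.

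For 36N against 36S, members called went from 3 to 5 with a pseudocount of 5 or quantile normalization and to 1 without the variance trend, a gene other than those 3, where 305 genes were called in place of 599. Leaving out 1 library gave 0 to 5 members and 218 to 558 genes. For KD against 36S it gave 4 to 13 members and 639 to 2062 genes, and without the trend 7 members and 1007 genes were called in place of 10 and 1503. For KD against 36N it gave 0 to 11 members and 138 to 2018 genes, and without the trend 0 members and 203 genes were called. Leaving out 1 library gave 0 to 1 genes for 36N against 36S with TMZ and 10 to 34 for the interaction. For TMZ in 36N it gave 33 to 37 members, and every call on a member but those of Shmt2 and Iars was kept each time. The interaction had 27 in place of 41 with the filter of 50. Fewer libraries or genes enter some of these by construction, and otherwise the cause was not tested.

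Signs changed with equal totals for Slc7a11 (-0.10) and Xbp1 (-0.045) in KD against 36S, Slc3a2 (-0.12) and Herpud1 (-0.063) in KD against 36N, and Slc3a2 (-0.0051) in 36N against 36S with TMZ. They changed with quantile normalization for Xbp1 (-0.0075) in KD against 36S and Slc3a2 (-0.019) in KD against 36N. From the other tables Shmt2 was -0.23 and Iars -0.22 with TMZ. None of these genes was called except Shmt2 and Iars. The cause was not tested.

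Leaving out 1 library in turn moved uncalled genes across 0. In KD against 36S the ranges were -0.17 to 0.21 (Slc7a11), -0.58 to 0.23 (Phgdh), -0.18 to 0.013 (Psat1), -0.16 to 0.15 (Hspa5) and -0.022 to 0.15 (Xbp1). In KD against 36N they were -0.046 to 0.072 (Slc3a2), -0.31 to 0.063 (Slc7a5), -0.039 to 0.31 (Psat1) and -0.082 to 0.19 (Herpud1). With TMZ, 36N against 36S ran from -0.092 to 0.74 (Trib3), -0.31 to 0.32 (Asns), -0.15 to 0.31 (Slc3a2), -0.35 to 0.35 (Slc7a5), -0.014 to 0.71 (Slc7a11), -0.30 to 0.40 (Phgdh), -0.23 to 0.35 (Psat1), -0.13 to 0.10 (Herpud1) and -0.14 to 0.16 (Xbp1). The interaction ran from -0.85 to 0.33 (Ddit3) and from -0.30 to 0.43 (Slc7a11).

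Library numbers 4 to 6 recur in untreated and TMZ titles, but the labels do not say that they mark the same mouse. The main fit therefore treated no libraries as pairs. Deviations of same-numbered 36N libraries correlated by 0.019, 0.037 and 0.086 across genes, which does not settle whether they are pairs. With the number as a replicate block, 36 members and 9985 genes were called for TMZ in 36N in place of 35 and 10037, and 19 genes in place of 41 for the interaction.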

Other observations

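The 36N and 36S libraries with TMZ resembled each other by position. Across all genes tested, deviations from the group mean correlated by 0.392 between libraries 1 and 4, 0.447 between 2 and 5 and 0.348 between 3 and 6, and over the 45 members by 0.589, 0.712 and 0.674. Other pairings were negative across all genes, from -0.236 to -0.124. Deviations from a group mean cancel within the group, so positive pairings force the others to be negative on balance. The negative values are therefore no separate result. The points are genes of the same libraries and are no independent replicates. The labels give no link between these libraries. With this order as a block, an alternative chosen after seeing the data, 781 genes had an unadjusted p under 0.05 in place of 191, and limma still called 0 genes and 0 members.

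Members with TGATGNAA in the promoter window had a median change of -0.27 in 36N, -0.55 in KD and 1.18 with TMZ. Those without it had -0.29, -0.21 and 1.33. These are descriptions of lists, with no test.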
